A study of Mus musculus with 8 samples.

Results

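The genes described here are 10 genes of fibroblast growth factor (FGF) signalling, chosen by name from the 28792 gene symbols of each deposited table: the ligand genes Fgf18 and Fgf5, the receptor genes Fgfr1, Fgfr2 and Fgfr3, the feedback inhibitor genes Spry1, Spry2, Spry4 and Dusp6, and the target gene Etv5. The study profiled hair follicle stem cells of the bulge, sorted from mouse back skin. Of its 8 samples, 4 are RNA sequencing libraries, with 1 library in each group; the other 4, chromatin immunoprecipitation samples and their input, were not analysed here. The first pair came from female C57BL6/129Sv mice of postnatal day 99. All of them carried K15CrePGR, a Cre recombinase fused to a progesterone receptor domain and driven by the promoter of the bulge keratin gene Krt15, and a Rosa-YFP reporter with a floxed stop. The group labelled Het had 1 floxed copy of Ctnnb1, the gene of β-catenin (Ctnnb1+/fl), and the group labelled cKO had both copies floxed (Ctnnb1fl/fl). The sources used here do not give how or when the recombinase was induced, and name both telogen and the onset of anagen as the stage of this pair. The second pair came from male C57BL6 mice of postnatal day 24, all heterozygous for the reporter allele Axin2LacZ/+, at the passage of the skin from telogen, the resting phase, into anagen, the growth phase; bulge cells were split by the activity of the reporter into LacZ(+) and LacZ(-) cells. Loss of 1 Axin2 copy is thus shared by both LacZ groups. Per the labels the second pair had no treatment. They do not say whether a library holds cells of 1 mouse or of several.

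Most FGFs are secreted proteins that bind receptor tyrosine kinases together with heparan sulfate. The activated receptor signals through docking proteins to RAS and the ERK kinases, which switch on transcription factors of the PEA3 group, such as Etv5. The same signal raises its own inhibitors, the Sprouty proteins upstream and the ERK phosphatase Dusp6 downstream, so these genes are commonly read as gauges of pathway activity. In the hair follicle, Fgf18 is known as a bulge factor that holds follicles at rest, and Fgf5 as a factor that ends hair growth.

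All values are FPKM, that is, sequenced fragments scaled by transcript length and library size. They allow levels of different genes to be set side by side, but fragment counts are not kept and the depth of a value is unknown. A difference is the log2 of (FPKM + 1) of one library over that of the other, taken where a gene reached 1 FPKM in at least one library of the pair; such genes are called measured. It counted as 2-fold at 1 or more, or at -1 or less. Each group is 1 library, so no test and no replicate check can be had, and every difference describes these libraries only. The 2 tables were made for different strains, sexes and ages, so levels across them are given side by side without a comparison.

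The libraries carried the genes of their labelled cell type, with 1 exception. All 9 markers of bulge and basal keratinocytes reached 1 FPKM in 3 libraries, and 8 did in LacZ(-) cells, where Krt15 is listed at 0 beside 8690 FPKM of Krt5. That 0 may be a value the authors' software could not estimate, and is not read as absence. Fibroblast and dermal papilla markers summed to between 11.0 and 23.2 FPKM over 7 genes, melanocyte markers to between 28.3 and 47.2 over 4, leukocyte markers to between 3.46 and 8.37 over 5, and endothelial markers to at most 0.324 over 3. The melanocyte sum was mostly Mitf in the libraries labelled cKO and Het (43.2 and 44.0 FPKM), where Dct stood at 0.871 and 1.92. In LacZ(+) and LacZ(-) cells Mitf stood at 9.41 and 13.6 FPKM and Dct at 15.2 and 12.5. Ctnnb1 stood at 370 FPKM in the library labelled cKO and 251 in that labelled Het; a value for the whole gene does not resolve a deleted part, so it does not check the genotype, and they are called by their labels. Axin2, a feedback gene of Wnt signalling, stood at 2.12 and 16.3 FPKM in the libraries labelled cKO and Het, and at 19.0 and 9.10 in LacZ(+) and LacZ(-) cells. Ctnnb1 and Axin2 share their intervals with other genes (4 and 2 symbols in all), so reads of overlapping genes can enter their values.

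Among the 10 genes, receptors were the most abundant and Fgf5 and Spry4 were barely present. Fgf18 was lower in LacZ(+) than in LacZ(-) cells by more than 2-fold, and it was the only one of the 10 genes past that line in either pair. Spry1, Spry2 and Fgfr2 were also lower in LacZ(+) cells, by less than 2-fold. In the other pair Spry1 and Dusp6 had the largest differences, both higher in the library labelled cKO by less than 2-fold. In bulk libraries, fewer cells of a type and less RNA per cell cannot be told apart.

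**Figure D1:**
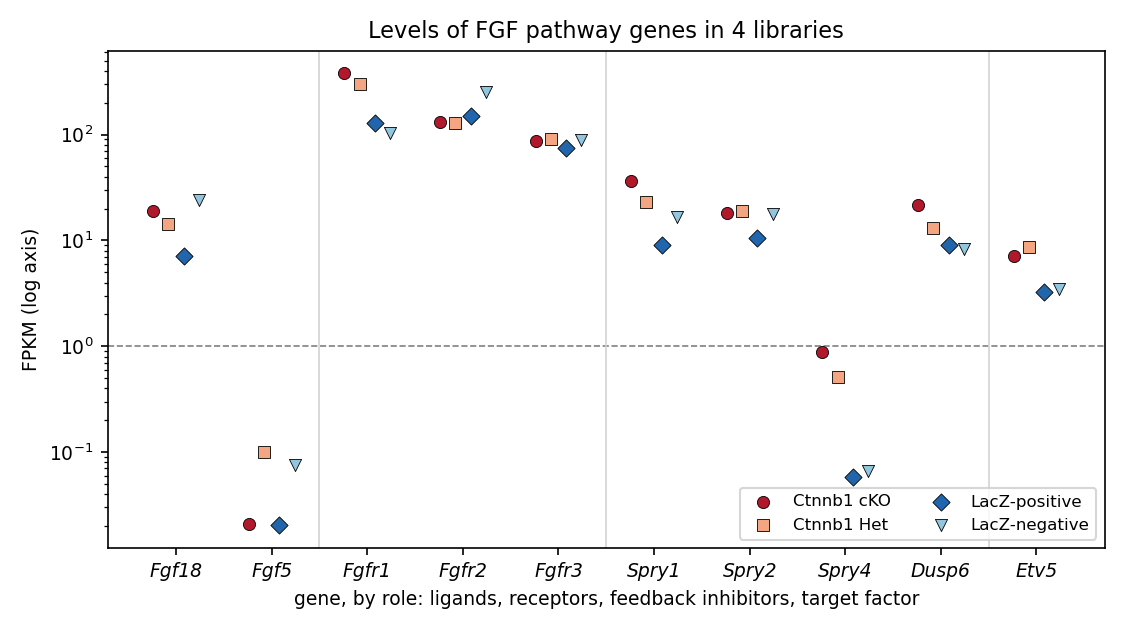
FPKM of the 10 genes (log axis) in the 4 libraries, 1 point per library, ordered by role; the dashed line marks 1 FPKM, and LacZ(+) and LacZ(-) cells are drawn as LacZ-positive and LacZ-negative. Fgfr1, Fgfr2 and Fgfr3 lie between 75.3 and 379 FPKM, and Fgf5 and Spry4 lie under the dashed line in all 4 libraries.

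Of the ligands, Fgf18 (ENSMUSG00000057967, mm9 chr11:33017429-33047400) stood at 19.1 FPKM in the library labelled cKO, 14.4 in that labelled Het, 7.19 in LacZ(+) cells and 23.97 in LacZ(-) cells. Within the LacZ pair the higher level was thus that of LacZ(-) cells, and within the other pair that of the library labelled cKO. The log2 difference was -1.61 between LacZ(+) and LacZ(-) cells, a ratio of FPKM of 3.33 in favour of LacZ(-) cells, and 0.39 between the libraries labelled cKO and Het. Among all measured genes the first value lay at percentile 0.768 and the second at percentile 91.0. No other gene shares the interval that the table gives for Fgf18.

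Because Fgf18 is the gene past the 2-fold line, the 250 bases before its RefSeq start site are shown (GRCm38.p6 chr11:33147401-33147650, minus strand, 5′ to 3′), with CpG dinucleotides in capitals.
Fgf18: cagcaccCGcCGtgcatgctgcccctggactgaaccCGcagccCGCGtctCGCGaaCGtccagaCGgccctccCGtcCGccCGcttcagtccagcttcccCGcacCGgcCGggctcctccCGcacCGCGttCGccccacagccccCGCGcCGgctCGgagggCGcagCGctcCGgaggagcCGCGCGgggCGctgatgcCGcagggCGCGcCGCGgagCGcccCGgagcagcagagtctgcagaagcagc
This stretch holds 37 CpG and has a GC content of 77.2%, against a median of 6 CpG and 52.4% over 32851 RefSeq windows of the same kind.

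Fgf5 (ENSMUSG00000029337, mm9 chr5:98683202-98706049) stood at 0.0209 FPKM in the library labelled cKO and 0.101 in that labelled Het, and at 0.0204 in LacZ(+) and 0.0756 in LacZ(-) cells. All 4 levels are far under 1 FPKM, so Fgf5 was not measured in either pair and no direction is read from it. In the authors' deposited table the log2 fold change of Fgf5 between the libraries labelled cKO and Het is -2.27, a ratio of these same low values.

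The 3 receptor genes were strongly expressed in every library. Fgfr1 (mm9 chr8:26624125-26686186) stood at 379 FPKM in the library labelled cKO, 298 in that labelled Het, 129 in LacZ(+) cells and 102 in LacZ(-) cells. It was thus higher in the first library of each pair, with log2 differences of 0.34 and 0.33. The tables give Fgfr1 in 2 rows, which were summed: ENSMUSG00000031565 held 338 and 269 FPKM in the libraries labelled cKO and Het, and ENSMUSG00000091895 held 41.3 and 29.2. Both rows were higher in the library labelled cKO, and both rows of the second table (116 against 95.3 FPKM and 13.7 against 7.15) were higher in LacZ(+) cells. The only other gene in the interval, Gm16159, stood at 1.68 FPKM or less in all 4 libraries.

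Fgfr2 (ENSMUSG00000030849, mm9 chr7:137305964-140316037), the receptor gene whose epithelial form binds FGFs released by the dermal papilla, stood at 132 FPKM in the library labelled cKO, 128 in that labelled Het, 149 in LacZ(+) cells and 253 in LacZ(-) cells. The first pair is nearly level, with a log2 difference of 0.05 that turned to -0.02 when centred, that is, taken relative to the median of the pair over genes that reached 5 FPKM in both libraries. In the second pair Fgfr2 was lower in LacZ(+) cells, with a log2 difference of -0.76 at percentile 5.10 of all measured genes. The tables give 41 gene symbols, Fgfr2 among them, the same interval, so reads of overlapping genes can enter its value. Other genes of that interval went both ways in the second pair: Tacc2 stood at 67.5 FPKM in LacZ(+) and 112 in LacZ(-) cells, Plekha1 at 103 and 52.2, and Htra1 at 31.7 and 15.2. These 3 neighbours were chosen after their values were seen.

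Fgfr3 (ENSMUSG00000054252, mm9 chr5:34064372-34079716, alone in its interval) stood at 87.2 and 91.2 FPKM in the libraries labelled cKO and Het, and at 75.3 and 88.7 FPKM in LacZ(+) and LacZ(-) cells. The log2 differences were -0.06 and -0.23, the second close to the median of -0.17 over all genes that reached 5 FPKM in both LacZ libraries.

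As shares of the summed FPKM of Fgfr1, Fgfr2, Fgfr3 and Fgfr4, Fgfr1 made up 63.3% in the library labelled cKO and 57.7% in that labelled Het, where it was the leading receptor. Fgfr2 led in the second pair, with 42.1% in LacZ(+) and 56.4% in LacZ(-) cells, where Fgfr1 made up 36.6% and 22.8%. The share of Fgfr3 lay between 14.6% and 21.3% in all 4 libraries. The sum over the 4 receptors was 598 FPKM in the library labelled cKO and 517 in that labelled Het, and 354 in LacZ(+) and 449 in LacZ(-) cells.

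**Figure D2:**
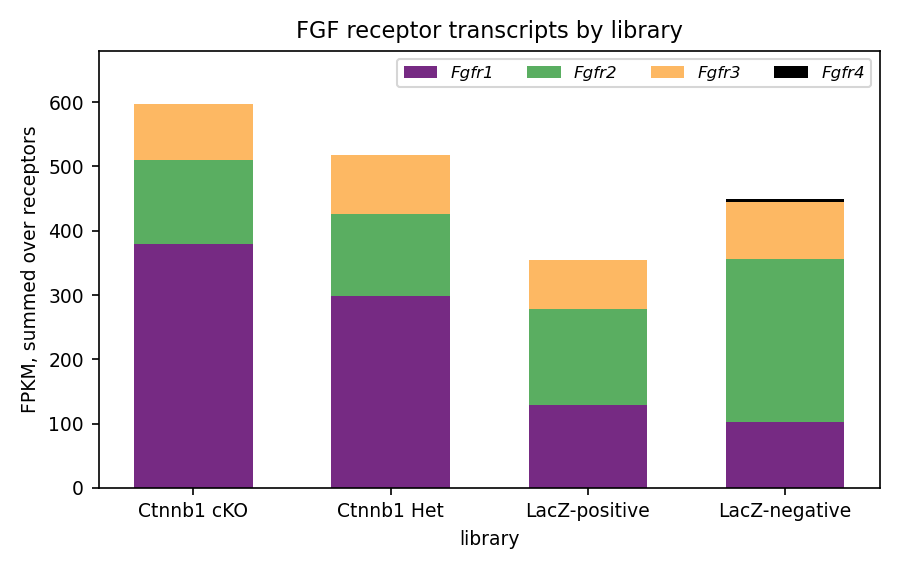
Stacked bars of the FPKM of Fgfr1, Fgfr2, Fgfr3 and Fgfr4 in the 4 libraries, 1 bar per library. Fgfr1 is the largest part in the libraries labelled cKO and Het and Fgfr2 in both LacZ libraries; Fgfr4 is visible only in LacZ(-) cells, at 4.85 FPKM.

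The feedback inhibitors did not move as 1 group. Spry1 (ENSMUSG00000037211, mm9 chr3:37538868-37543520), a Sprouty gene whose product restrains signalling from receptor tyrosine kinases to ERK, stood at 36.1 FPKM in the library labelled cKO, 23.0 in that labelled Het, 8.996 in LacZ(+) cells and 16.5 in LacZ(-) cells. It was higher in the library labelled cKO (log2 difference 0.63, percentile 96.2 of all measured genes) and lower in LacZ(+) cells (-0.81, percentile 4.38). Of the 8 measured genes, Spry1 and Fgf18 were the ones that were higher in the library labelled cKO and lower in LacZ(+) cells both as deposited and after centring.

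The 250 bases before the RefSeq start site of Spry1 (GRCm38.p6 chr3:37639697-37639946, plus strand, 5′ to 3′) are shown because Spry1 shared both directions with Fgf18, again with CpG dinucleotides in capitals.
Spry1: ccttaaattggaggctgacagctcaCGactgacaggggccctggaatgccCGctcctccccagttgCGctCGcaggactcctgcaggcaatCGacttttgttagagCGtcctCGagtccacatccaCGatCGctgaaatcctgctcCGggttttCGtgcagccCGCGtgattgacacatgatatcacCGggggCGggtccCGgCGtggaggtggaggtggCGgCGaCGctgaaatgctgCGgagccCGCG
Spry1 holds 23 CpG here, at a GC content of 62.4%, and the stretch before Spry2 gave the same 2 values. The stretch before Fgfr2 holds 2 CpG at 44% GC. The other stretches found hold 24 CpG (Fgf5), 19 and 24 (Fgfr3), 18 and 27 (Etv5) and 16 (Dusp6), so the count of Spry1 is not particular to it. RefSeq windows of 300 bases, from 250 before to 50 after a start site, were found for 8 of the 10 genes (10 windows) and not for Fgfr1 and Spry4. On both strands, none of the 10 windows holds the ETS core letters CCGGAAG, the TCF/LEF letters CTTTGAT or the AP-1 letters TGANTCA, which occur in 8.86%, 3.73% and 7.81% of all 32851 windows of that length. No match says only that these letters are not in these windows.

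Spry2 (ENSMUSG00000022114, mm9 chr14:106291165-106296036), the second Sprouty gene expressed here, stood at 18.2 and 18.8 FPKM in the libraries labelled cKO and Het, and at 10.5 and 17.9 FPKM in LacZ(+) and LacZ(-) cells. It was level in the first pair (log2 difference -0.04) and lower in LacZ(+) cells (-0.72, percentile 6.23). The Ctnnb1 libraries thus lie within 1 FPKM of each other, and the LacZ libraries do not. Spry1 and Spry2 took nearly the same parts of the Sprouty sum in both LacZ libraries: Spry1 made up 45.9% in LacZ(+) and 47.8% in LacZ(-) cells, against 65.4% in the library labelled cKO and 54.3% in that labelled Het.

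Spry4 (ENSMUSG00000024427, mm9 chr18:38745921-38760922) was the scarcest of the Sprouty genes. It stood at 0.880 FPKM in the library labelled cKO and 0.509 in that labelled Het, and at 0.0577 and 0.0666 FPKM in LacZ(+) and LacZ(-) cells. All of these are under 1 FPKM, so Spry4 was not measured in either pair. It made up at most 1.59% of the Sprouty sum.

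Dusp6 (ENSMUSG00000019960, mm9 chr10:98725864-98730122), the phosphatase that removes the activating phosphates of ERK, stood at 21.4 FPKM in the library labelled cKO, 13.1 in that labelled Het, 9.12 in LacZ(+) cells and 8.21 in LacZ(-) cells. Its log2 difference of 0.67 in the first pair was the largest of the 8 measured genes there (percentile 96.6), and in the second pair it was 0.14. Dusp6 therefore did not go with Spry1 and Spry2 in the LacZ pair. Beside the higher Dusp6 and Spry1 in the library labelled cKO, early-response genes were also higher there: Fos stood at 938 against 348 FPKM, Egr1 at 455 against 178, Ier2 at 130 against 68.4 and Dusp1 at 388 against 148. The same genes were higher in LacZ(+) than in LacZ(-) cells too, where Dusp6 was higher (0.14) and Spry1 lower (-0.81). Fos stood there at 551 against 366 FPKM, Egr1 at 163 against 123, Ier2 at 91.3 against 85.5 and Dusp1 at 160 against 131. Among all measured genes, 60.9% were higher in the library labelled cKO and 36.6% in LacZ(+) cells. These 4 early-response genes were chosen after their values were seen, and their part in the difference of Dusp6 and Spry1 was not tested.

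Etv5 (ENSMUSG00000013089, mm9 chr16:22381381-22439792), an ETS-family transcription factor of the PEA3 group, stood at 7.14 and 8.69 FPKM in the libraries labelled cKO and Het, and at 3.26 and 3.44 FPKM in LacZ(+) and LacZ(-) cells. It was lower in the library labelled cKO by a log2 difference of -0.25, opposite to Dusp6 and Spry1. In the second pair the difference was -0.06, which turned to 0.11 when centred, so no direction is given for it.

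Counted over the 8 measured genes of the 10, none was past the 2-fold line between the libraries labelled cKO and Het, where 4.09% of 13014 measured genes were. The median of the 8 differences was 0.19, against 0.06 over all measured genes, with 5 of 8 higher (4 after centring, without Fgfr2), where 60.9% of all measured genes were higher; Dusp6 and Spry1 lay just above the central 95% of genes that reached 5 FPKM in both libraries, which ran from -0.50 to 0.61. In the LacZ pair 1 of 8 genes, Fgf18, was past the line, against 7.27% of 13283 measured genes in either direction and 2.6% lower by 2-fold or more. There 6 of 8 genes were lower (5 after centring, without Etv5), where 63.4% of all measured genes were lower. The median was -0.47 against -0.13 over all measured genes. The central 95% ran from -0.91 to 0.85, and the other 7 genes lay inside it. With 1 of 8 genes past the line, the share cannot be set apart from that background.

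**Figure D3:**
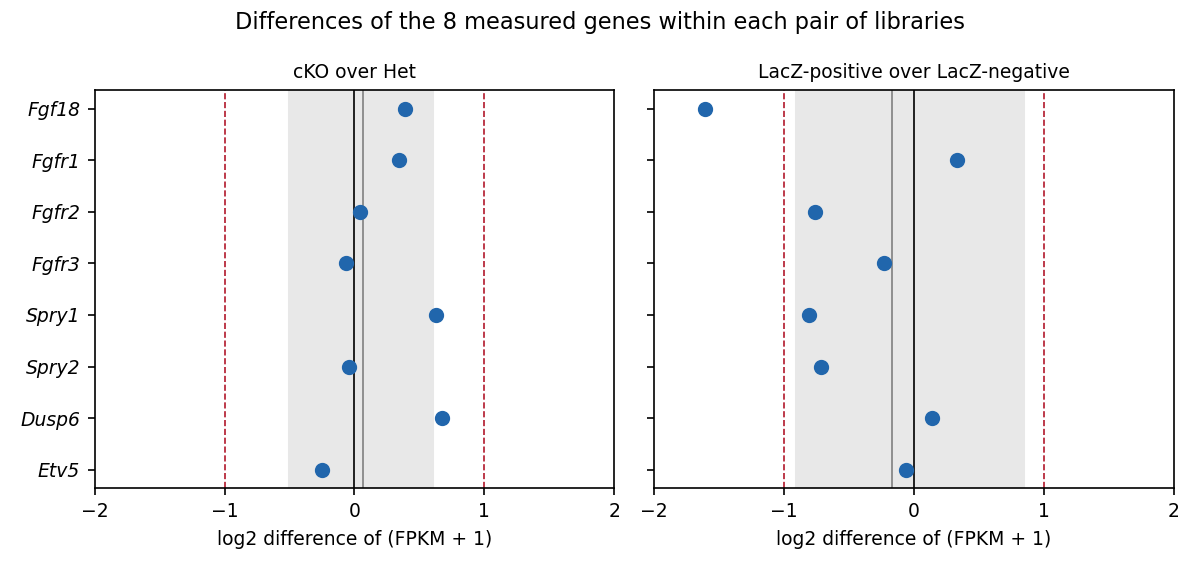
Log2 difference of (FPKM + 1) of the 8 measured genes in each pair, 1 point per gene. Grey bands hold the central 95% of genes that reached 5 FPKM in both, grey lines their median (0.07 and -0.17) and dashed lines the 2-fold limits; Fgf18 at -1.61 in the LacZ pair is the only point past a dashed line.

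Other measures moved with the LacZ pair. Markers of dividing cells (Top2a, Mki67, Ccna2 and Cdk1, all 4 at 1 FPKM or more) summed to 101 FPKM in LacZ(+) and 15.1 in LacZ(-) cells. Markers of differentiated epidermis (all 5 at 1 FPKM or more) summed to 2028 and 852 FPKM, led by Krt10 at 1491 and 633. Bulge and basal markers went both ways, with 4 of 9 higher and 5 lower in LacZ(+) cells. The 4 include Krt15, counted from its listed 0 in LacZ(-) cells, which is not read as absence. Cd34 stood at 223 FPKM in LacZ(+) and 516 in LacZ(-) cells and Lhx2 at 145 and 242. Krt14 stood at 2144 and 1714 and Itga6 at 185 and 178. In the first pair the dividing-cell markers summed to 3.76 FPKM in the library labelled cKO and 30.0 in that labelled Het, and the epidermal markers to 642 and 616, where Krt10 (480 and 430) and Krt1 were higher and Lor (47.4 and 81.3), Flg and Ivl lower in the library labelled cKO. Of the 9 bulge and basal markers, 8 were higher in the library labelled cKO, where 60.9% of all measured genes were higher. Cd34 stood there at 752 against 645 FPKM and Lhx2 at 285 against 220, and Nfatc1 (42.8 against 62.0) was the lower one. The part of these cell populations in the differences of Fgf18, Fgfr2, Spry1 and Spry2 was not tested.

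The wider pathway was read from a list of 63 further genes in 6 roles, of which 62 are in the tables. In the first pair 35 were measured, 24 of them higher and 11 lower in the library labelled cKO, where 60.9% of all measured genes were higher, with a median of 0.06, the same as over all measured genes. The 1 gene past the 2-fold line was Phlda1, a gene switched on by growth factor signals, at 8.92 FPKM in the library labelled cKO and 25.1 in that labelled Het (log2 difference -1.39). Of all measured genes, 4.09% were past it in this pair. In the second pair 37 were measured, 13 higher and 24 lower, where 63.4% of all measured genes were lower, with a median of -0.09 against -0.13 over all measured genes. Both splits depend on the scale: when centred, 16 were higher and 19 lower in the first pair, and 23 higher and 14 lower in the second. The 1 gene past the line was the receptor gene Fgfr4 (mm9 chr13:55254000-55270120, alone in its interval), at 0.0648 FPKM in LacZ(+) and 4.85 in LacZ(-) cells (-2.46). Of all measured genes, 7.27% were past it there. With 1 of 35 and 1 of 37 genes, neither share can be set apart from its background. Fgfr4 stood at 0.0341 and 0.0260 FPKM in the libraries labelled cKO and Het.

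Few of the other FGF ligand genes were expressed. Of 20, Fgf1 and Fgf11 were measured in the first pair, and Fgf1, Fgf11 and Fgf13 in the second; Fgf11 and Fgf13 encode FGF homologous factors that stay inside the cell. Fgf1, a broadly acting ligand without a classical secretion signal, stood at 49.0 and 46.6 FPKM in the libraries labelled cKO and Het, above Fgf18, and at 7.02 and 12.5 FPKM in LacZ(+) and LacZ(-) cells, below Fgf18. Its log2 differences were 0.07 and -0.75. Fgf1 shares its interval with other genes (5 symbols in all), so reads of overlapping genes can enter its value and share. Summed over 22 FGF genes, the level was 73.3 and 66.1 FPKM in the first pair, with Fgf1 as 66.8% and 70.6% of it, and 18.2 and 40.9 FPKM in LacZ(+) and LacZ(-) cells, with Fgf18 as 39.4% and 58.6%. Fgf7 and Fgf10, ligands of the dermal papilla, stood at or under 0.393 FPKM in all 4 libraries.

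Apart from Fgfr4, the measured co-receptors and heparan sulfate enzymes lay inside the 2-fold line, set on (FPKM + 1), in both pairs. Sdc1, a heparan sulfate proteoglycan and the most abundant of the co-receptors, stood at 494 and 316 FPKM in the libraries labelled cKO and Het and at 467 and 643 FPKM in LacZ(+) and LacZ(-) cells (log2 differences 0.64 and -0.46). Fgfrl1, a receptor without a kinase domain, stood at 7.13 and 5.43 FPKM, then at 2.40 and 5.27 (0.34 and -0.88). Without the added 1 FPKM, its ratio was 2.20 in favour of LacZ(-) cells. Sdc1 and Fgfrl1 thus shared the directions of Fgf18 and Spry1 without passing that line. So did Sdc2, Gpc1 and Hspg2 before centring, and of these Sdc2 also after it, barely (0.017 and -0.0012). Gpc4 went the opposite way in both pairs. Among all measured genes, 60.9% were higher in the library labelled cKO and 63.4% lower in LacZ(+) cells. The 7 measured heparan sulfate enzymes lay between 0.0056 and 0.26 in the first and between -0.46 and 0.12 in the second. The most abundant of them was Ext1, which builds the sugar chain, at 69.6 and 63.4 FPKM in the first pair and 54.5 and 54.7 FPKM in the second.

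The adaptors that carry the receptor signal differed little. All 11 were measured in both pairs, with a range of -0.03 to 0.32 in the first. In the second pair 10 of them lay between -0.09 and 0.12, and Cbl, a ubiquitin ligase that removes activated receptors, stood at 10.1 FPKM in LacZ(+) and 5.20 in LacZ(-) cells (0.84). The most abundant, Plcg1, stood at 51.5 and 41.0 FPKM in the libraries labelled cKO and Het and at 32.9 and 33.4 FPKM in LacZ(+) and LacZ(-) cells. After centring, all 11 adaptors were higher in LacZ(+) cells (median 0.21), where 7194 of 13283 measured genes were higher.

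Other feedback inhibitors and targets did not share one direction with Spry1 and Spry2. Of the 6 other inhibitors measured, 1 was higher and 5 lower in the library labelled cKO, also after centring. There, 60.9% of all measured genes were higher. In LacZ(+) cells 2 were higher and 4 lower, where 63.4% of all measured genes were lower. After centring, 4 were higher and 2 lower in LacZ(+) cells. In the LacZ pair Dusp5, a nuclear ERK phosphatase, stood at 4.01 FPKM in LacZ(+) and 1.67 in LacZ(-) cells (0.91), and Il17rd, a membrane inhibitor of FGF signalling, at 3.75 and 2.62 (0.39). Dusp7, a phosphatase of ERK and the most abundant of this list in the LacZ pair, stood at 39.4 and 51.3 FPKM (-0.37), and Spred1, a relative of the Sprouty genes, at 25.2 and 27.0 (-0.10). The PEA3-group gene Etv4, a relative of Etv5, stood at 3.68 FPKM in LacZ(+) and 1.73 in LacZ(-) cells (0.78), and at 11.1 FPKM in the library labelled cKO and 20.2 in that labelled Het (-0.81). Phlda1 stood at 25.1 and 18.1 FPKM in the LacZ pair (0.45). Etv4 and Phlda1, the measured members of the 4 target genes, were thus lower in the library labelled cKO and higher in LacZ(+) cells, opposite to Fgf18 and Spry1 in both pairs. Neither gene passed the 2-fold line in both pairs.

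**Figure D4:**
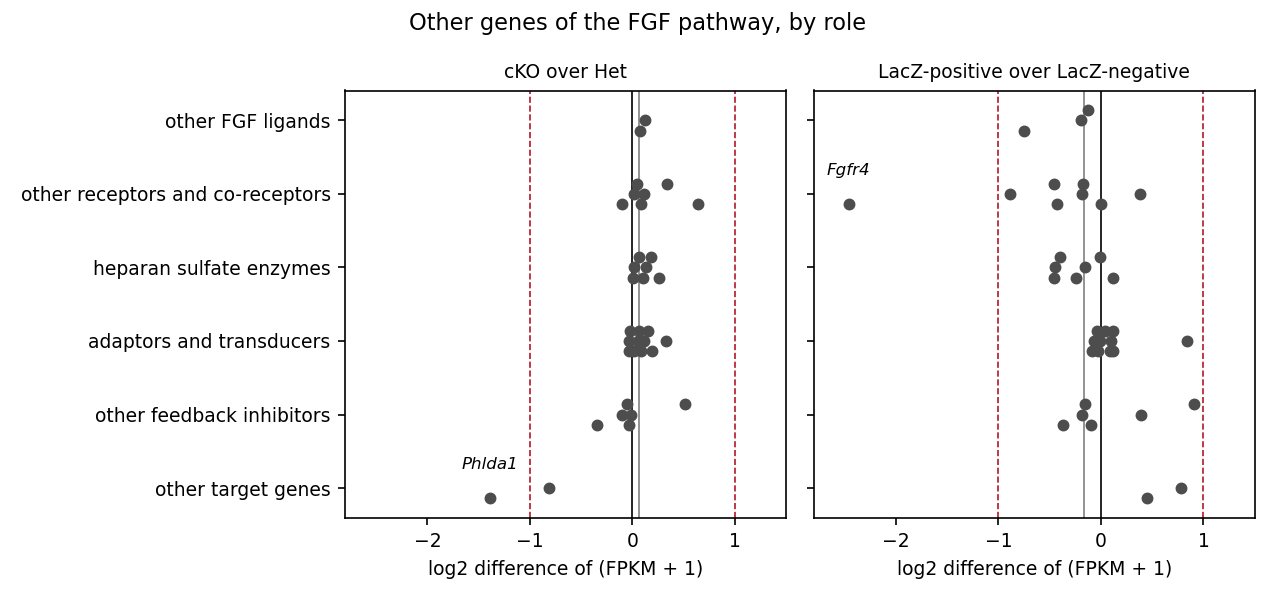
Log2 difference of (FPKM + 1) of the measured genes of the 6 role lists in each pair, 1 point per gene (vertical offsets separate points only); grey lines mark the median of all genes that reached 5 FPKM in both and dashed lines the 2-fold limits. Phlda1 (-1.39) in the first pair and Fgfr4 (-2.46) in the second are the points past the limits, and adaptors and transducers cluster near 0.

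Genes with a pattern close to that of Fgf18 were looked for by the distance over both log2 differences, among 8379 other genes at 5 FPKM or more in at least 1 library of each pair and above 0 in all 4 libraries, without clone names. The 5 nearest were Crip1 (distance 0.17), Me3 (0.17), Myh14 (0.23), Dpf1 (0.23) and Dapk2 (0.25). Crip1, a LIM-domain protein gene, stood at 415 FPKM in LacZ(+) and 1316 in LacZ(-) cells, and at 948 and 813 FPKM in the libraries labelled cKO and Het. Me3, a mitochondrial malic enzyme gene, stood at 2.52 and 10.2 FPKM in the LacZ pair and at 18.0 and 15.3 in the other. This likeness rests on 2 differences between 4 libraries and on no replicate. Me3 shares its interval with another gene (2 symbols in all), so reads of that gene can enter its value.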

How the data were processed

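RNA libraries of 4 sorted populations were used, 1 per group. The authors deposited 2 gene tables of 32091 rows with FPKM, 1 table per pair, and in the first also a log2 fold change of cKO over Het, per the file headers. Cufflinks 2.1.1, TopHat2 2.0.4 and the builds mm9 and GRCm38 are named, without roles, per the submitters' processing notes. Coordinates reach 152509964 on chromosome 7, past the last GRCm38 gene end (145324059), and are taken as mm9. Sequences are from RefSeq (GRCm38.p6). Rows of one symbol were summed; 25 symbols turned into dates were restored from Ensembl identifiers. The members and lists were chosen with earlier results of these data known. Named were all 10 members, the checks Ctnnb1 and Axin2, of each role list the genes past 2-fold and the most abundant, and the 5 genes nearest to Fgf18 in pattern; others were added after their values were seen. In rows under 0.3 FPKM in both libraries, ratios piled up at 1.04 (cKO over Het) and 0.94 (LacZ-positive over LacZ-negative), so 1 fragment was worth nearly the same in both libraries of a pair; total depth is unknown. The mitochondrial transfer RNA mt-Ts1 took 20.6% to 28.1% of summed FPKM. Calls were run on simulated pairs made from 1 library without noise, which checks the code and not the reliability of a difference. Alternatives were a pseudocount of 0.1 or 5, a minimum of 5 FPKM or none, centring on the median of genes that reached 5 FPKM in both libraries, upper-quartile scaling and the highest row per symbol; keeping only genes alone in their interval was added after seeing the data. Python 3.11.15 with pandas 2.3.3 was used.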

Additional observations from a re-analysis of the deposited data

How the results depend on the processing

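Fgf18 stayed past the 2-fold line between LacZ(+) and LacZ(-) cells under all 8 alternatives, with log2 differences from -1.72 to -1.25, and none of the other 7 measured genes crossed the line in either pair under the alternatives that gave it a value. Keeping only genes alone in their interval leaves out Fgfr1 and Fgfr2, and a minimum of 5 FPKM leaves out Etv5 in the LacZ pair. With scaling, 2 differences near 0 changed sign: Fgfr2 between the libraries labelled cKO and Het (-0.023 centred, -0.012 with upper-quartile scaling) and Etv5 in the LacZ pair (0.11 with each). Of the 63 further genes, Phlda1 was the one past the line in the first pair under every alternative. In the LacZ pair the count was 1 as reported, 4 with a pseudocount of 0.1 (Fgfr4, Fgfrl1, Dusp5 and Etv4), 0 with a pseudocount of 5, 0 with a minimum of 5 FPKM, which leaves Fgfr4 out, and 3 both when centred and with upper-quartile scaling (Fgfr4, Cbl and Dusp5). Over all genes of that pair, the share of higher genes among those past the line went from 64.2% to 78.2% when centred and 79.1% with upper-quartile scaling. The percentage of all genes past the line lay between 2.33 and 6.02 in the first pair and between 3.46 and 10.9 in the second. Unknown depth limits what can be said of genes under 1 FPKM, Fgf5 and Spry4 among them. No paired analysis was possible because each group has 1 library.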
